A study of Mus musculus with 12 samples.

Results

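The cytosolic ribosomal protein genes encode the proteins of the ribosome that translates nuclear-encoded mRNA: the Rpl proteins and the acidic stalk proteins Rplp0, Rplp1 and Rplp2 build the large (60S) subunit, and the Rps proteins with Rpsa build the small (40S) subunit. They were taken as the protein-coding rows of the expression table whose symbol has the form Rpl or Rps, a number and at most a short suffix (a, x, y or l, with at most 1 further digit), together with Rplp0, Rplp1, Rplp2 and Rpsa. This gave 85 of the 28987 genes in the table, 50 of the large and 35 of the small subunit. The rule used names only and no measured value, but the set was chosen with earlier results of these data known. By the GENCODE M21 annotation of the mouse genome (GRCm38) the 85 genes lie on 19 chromosomes, 14 of them on chromosome 7, and 3 of them, Rps3a2, Rps3a3 and Rps4y2, are annotated there as processed pseudogenes.

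RNA-seq was performed on 12 libraries of cells from mice of the FVB strain, 3 in each of 4 groups: bone marrow (BM) and peritoneal (PT) cells of wild type (WT) mice, and BM and PT cells of MRP8-Bcl2 mice. MRP8-Bcl2 mice carry a human Bcl-2 transgene driven in myeloid cells by the MRP8 promoter, and their neutrophils resist programmed cell death. All mice, WT and transgenic, had received 2 mL of thioglycollate into the peritoneum, an irritant that draws neutrophils there, and the labels give 6 h between injection and collection, while the study's methods give other hours. The comparison of PT with BM within each genotype asks how the transcriptome differs between neutrophils of the marrow and those that reached the inflamed cavity. The cells were sorted, and the labels name them macrophages where the study's design text names them neutrophils. Libraries carry here the numbers of their columns in the table, which name no mouse. Values of a group are given in the order of these numbers, 4, 5 and 6 for BM WT, 10, 11 and 12 for PT WT, 1, 2 and 3 for BM MRP8-Bcl2 and 7, 8 and 9 for PT MRP8-Bcl2. BM and PT libraries of 1 mouse could not be paired, and p-values measure the spread between libraries only.

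Ribosomal proteins are made in nearly equal amounts and are needed wherever cells grow. Neutrophil precursors in the marrow divide and fill their granules with newly made proteins, while the mature neutrophil has left the cell cycle. Most vertebrate ribosomal protein mRNAs begin with a 5′ terminal oligopyrimidine (TOP) tract, a C followed by a run of C and T, through which the kinase mTORC1 sets how strongly they are translated. The mammalian genome also holds many processed pseudogenes of ribosomal protein genes, which are copies of their spliced mRNA, so short reads often cannot be placed on 1 gene alone.

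Several ribosomal protein genes shared their whole coding sequence with such a copy, and the table listed high levels for the copy. The coding stretches below show this, in GRCm38, from base 1 of the start codon for Rps12, Rps27 and Rpl31 and from base 37 for Rpl30, each above the same stretch of the copy, with a base that differs in capitals.
Rps12 (chr10:23785183-23787275, strand -): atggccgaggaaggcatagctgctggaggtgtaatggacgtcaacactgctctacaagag
Rps12-ps3 (chr19:59322290-59322783): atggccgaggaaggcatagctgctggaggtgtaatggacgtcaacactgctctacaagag
Rps27 (chr3:90212522-90213651, strand -): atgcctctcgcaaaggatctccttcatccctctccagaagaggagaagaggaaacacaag
Gm9846 (chr9:114982366-114982739): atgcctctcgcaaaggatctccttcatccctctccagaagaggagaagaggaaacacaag
Rpl31 (chr1:39367842-39371911, strand +): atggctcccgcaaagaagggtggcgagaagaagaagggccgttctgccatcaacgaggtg
Rpl31-ps8 (chr15:90764279-90764656): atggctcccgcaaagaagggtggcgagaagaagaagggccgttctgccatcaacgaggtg
Rpl30 (chr15:34440505-34443640, strand -): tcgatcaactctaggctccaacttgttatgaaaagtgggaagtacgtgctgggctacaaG
Gm12191 (chr11:49678710-49679057): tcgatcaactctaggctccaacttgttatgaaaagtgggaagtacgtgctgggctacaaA
The coding sequences of Rps12 (396 bases), Rps27 (252 bases) and Rpl31 (375 bases), stop codon left out, were identical over their full length to the copy printed under each, and that of Rpl30 was identical at 344 of 345 bases. The coordinates are those of the whole gene or copy. In all, 17 of the 85 genes had another row that held their whole coding sequence.

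The second set of sequences shows the start of transcription, where the TOP tract lies. The windows run from 15 bases before to 15 bases from the RefSeq start on (GRCm38.p6), with the tract in capitals. A tract was a C followed by at least 4 further C or T, beginning within 5 bases of the start on the gene's own strand.
Rps10 (chr17:27635230-27635259, strand -): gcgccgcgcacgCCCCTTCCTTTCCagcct
Rpl7a (chr2:26910792-26910821, strand +): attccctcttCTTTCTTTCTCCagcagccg
Rplp2 (chr7:141447636-141447665, strand +): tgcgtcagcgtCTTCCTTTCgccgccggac
Rpl38 (chr11:114668565-114668594, strand +): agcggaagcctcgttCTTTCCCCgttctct
Rps27 (chr3:90213634-90213663, strand -): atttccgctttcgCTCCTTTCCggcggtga
Rps6 (chr4:86857353-86857382, strand -): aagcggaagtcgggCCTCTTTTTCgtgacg
Rpl6 (chr5:121204486-121204515, strand +): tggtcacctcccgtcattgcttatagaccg
Rpsa (chr9:120127751-120127780, strand +): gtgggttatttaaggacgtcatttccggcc
Rps25 (chr9:44407699-44407728, strand +): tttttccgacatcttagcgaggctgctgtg
The last 3 windows hold no tract by this definition. Of the 62 ribosomal protein genes with a promoter in the RefSeq table, 29 (46.8%) had a tract at 1 or more starts, against 21.2% of the 27025 genes with a promoter there. A match is a run of letters and says nothing of how the mRNA is translated, and the annotated start of a gene need not be the base used in neutrophils.

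The values are TPM, a level corrected for transcript length and scaled so that each library has the same total. Of the 85 genes, 60 were above 0 in all libraries and 4 were listed at 0 in all of them. The ribosomal protein genes lay near the top of each library, with the median gene at the 86.3rd to 98.4th percentile of the 13456 genes tested. The highest medians over the 12 libraries belonged to Rpl32 (408.8 TPM), Rpl23a (347 TPM) and Rps29 (332 TPM). Rpl32 and Rpl23a are large subunit proteins and Rps29 is a small subunit protein with a zinc-binding motif. Rpl32 held 493, 332 and 486 TPM in BM and 277, 257 and 326 TPM in PT of WT, and 513, 610.3 and 1620.3 TPM in BM and 1089.6, 33.9 and 158 TPM in PT of MRP8-Bcl2, and its PT WT libraries were all below its BM WT libraries.

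**Figure D1:**
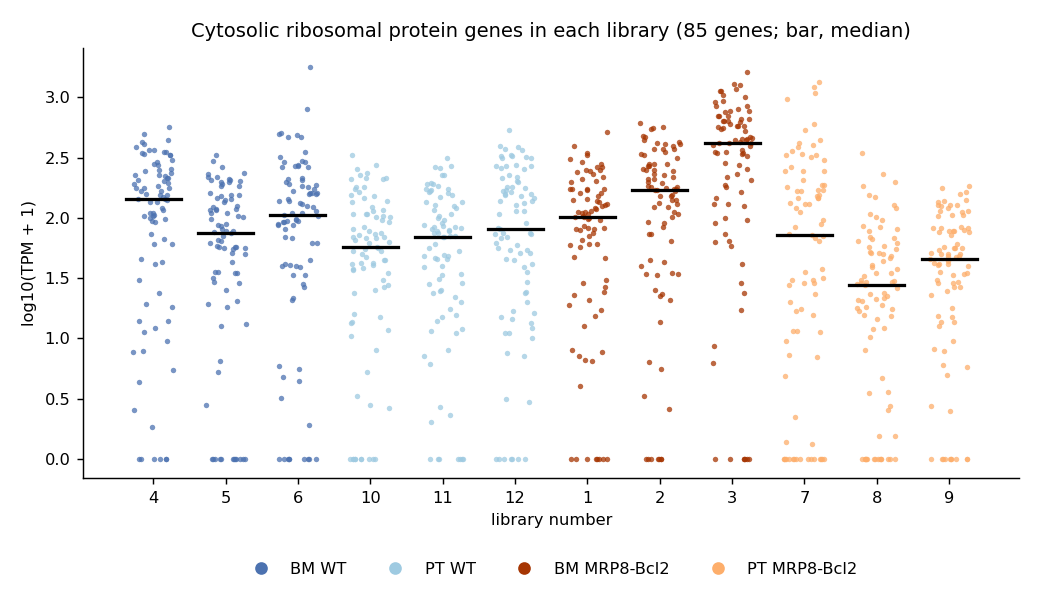
Levels of the 85 ribosomal protein genes in each library, as log10(TPM + 1) on the y axis with libraries by number on the x axis, 1 point per gene and a bar at the median, coloured by group. The median is highest in library 3 (BM MRP8-Bcl2), at 415 TPM, and lowest in library 8 (PT MRP8-Bcl2), at 26.6 TPM, and library 7 shows the widest scatter.

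Some facts of the libraries bear on every value below. The 108 genes with a stretch of 31 or more A, or of T, in a transcript (homopolymer genes here) took 8.93 to 24.1% of the TPM in BM libraries and 15.5 to 65.6% in PT libraries, which lowers all other genes in the same library. From the spacing of low values, 1 read on a transcript of a kilobase was worth 0.341 to 1.57 TPM, so the libraries were shallow and a TPM near 1 rests on very few reads. Neutrophil marker genes (6 of 6 listed) summed to 75706 to 331235 TPM in BM and 14101 to 65683 TPM in PT libraries, and macrophage markers (10 listed) to 49.2 to 229.8 TPM in BM and 149 to 709.8 TPM in PT. S100a8 and S100a9 made up most of the neutrophil sum in every library. Csf3r alone of the 6 was higher in all PT than in all BM libraries, at 1839 to 4569 against 132 to 1038 TPM. Cd68 made up most of the macrophage sum in PT, at 107 to 574 TPM. Erythroid markers (5 listed) summed to 33.3 to 691 TPM in BM and 0 to 8.18 TPM in PT, and B cell markers (7 listed) to 38.8 to 299 TPM in BM and 253 to 1512 TPM in PT. Mast cell markers (5 listed) summed to 678 TPM in library 12 and to at most 78.0 TPM elsewhere. The part of these cell types in the differences between PT and BM was not tested. The markers of immature neutrophils (11 listed, including granule and proliferation genes) summed to 17684 to 45916 TPM in BM and 384 to 1186 TPM in PT libraries. The row of mouse Bcl2 held 166, 224 and 333 TPM in BM MRP8-Bcl2, 82.8, 58.6 and 0.695 TPM in PT MRP8-Bcl2 and at most 2.37 TPM in WT, so library 9, labelled MRP8-Bcl2, stood at the WT level. In bulk libraries fewer cells of a type and less RNA per cell cannot be told apart.

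As a share of all TPM the 85 genes made up 1.49, 0.843 and 1.43% in BM and 0.729, 0.755 and 1.17% in PT of WT. They made up 1.06, 1.75 and 4.15% in BM and 1.5, 0.407 and 0.49% in PT of MRP8-Bcl2. The groups overlapped in both genotypes. With the homopolymer genes left out of the total the WT groups were level, at 1.54% ± 0.447 (SD, n = 3) in BM and 1.53% ± 0.102 (SD, n = 3) in PT. The MRP8-Bcl2 groups then stood at 2.74% ± 1.84 (SD, n = 3) in BM and 1.41% ± 0.375 (SD, n = 3) in PT, and the BM value rested on library 3, at 4.81% against 1.30 and 2.10% in the other BM libraries. Library 3 was the highest of all libraries for 62 of the 81 genes that were above 0 anywhere. It also held the highest levels of the early granule genes Elane (3557 TPM) and Mpo (3698 TPM) and of the proliferation gene Mki67 (466 TPM), and the lowest BM levels of S100a8 (38874 TPM), a gene of mature neutrophils. Of the same list of immature neutrophil markers, Ctsg, Prtn3 and Top2a were also highest there. Camp (2844 TPM), Ngp (2630 TPM), Ltf (376 TPM) and Lcn2 (2675 TPM) of that list were instead at their lowest BM levels. The sum of the list in library 3, 17684 TPM, was the lowest of the BM libraries. Whether these go with its ribosomal protein level was not tested.

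**Figure D2:**
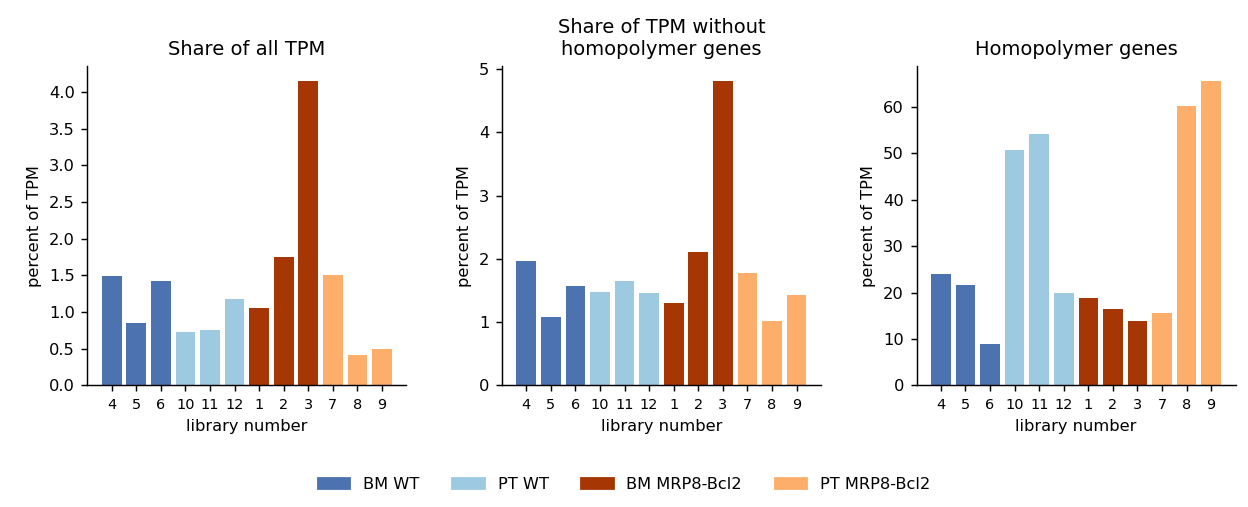
Percent of TPM per library (y axes, from 0) held by the ribosomal protein genes, by the same genes once homopolymer genes are left out of the total, and by the homopolymer genes, with libraries by number on the x axis and bars coloured by group. Leaving out the homopolymer genes brings the PT WT bars to 1.46 to 1.65%, inside the BM WT range of 1.08 to 1.97%, and library 3 stands at 4.81%.

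In WT mice no ribosomal protein gene differed between PT and BM neutrophils past the threshold. Differences were tested with limma on log2(TPM + 1). The test covered the 13456 genes that reached 1 TPM in 3 or more libraries, among them 79 of the 85. A gene was called when its adjusted p (Benjamini-Hochberg) was under 0.05 and its fold was 2 or more. By that rule 0 of 79 were called lower and 0 higher, against 1.22% of all genes tested called lower and 1.59% called higher. At an unadjusted p under 0.05 there were 2 (2.53%), both lower in PT, against 16.5% of all genes tested in either direction. The median log2 fold change of the 79 was -0.45, beside 0.22 for all genes tested, and 65 of the 79 were below 0. In 11 of 79 (13.9%) all PT WT libraries lay below all BM WT libraries, as they did in 7.97% of all genes tested.

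The genes nearest to a difference in WT were Rps15 and Rps14, both of the small subunit. Rps15, needed for the export of small subunit precursors from the nucleus, held 177, 216 and 801 TPM in BM and 108, 128 and 72.1 TPM in PT of WT. Rps15 stood at 174, 428 and 853 TPM in BM and 133, 153 and 121 TPM in PT of MRP8-Bcl2. Its WT groups did not overlap, and the log2 fold change of PT against BM was -1.64 (SE 0.65, adjusted p = 0.21). Rps14, encoded on chromosome 18, held 44.4, 24.1 and 292 TPM in BM and 12.6, 29.8 and 16 TPM in PT of WT. Rps14 stood at 81.3, 139 and 178 TPM in BM and 8.48, 14.5 and 49.6 TPM in PT of MRP8-Bcl2. Its WT groups overlapped, with 1 BM library at 292 TPM far above the others, and the log2 fold change was -1.85 (SE 0.85, adjusted p = 0.29). The remaining large falls in WT were those of Rps10 at -1.78 (SE 1.00, adjusted p = 0.39), Rps13 at -1.71 (SE 1.45, adjusted p = 0.60) and Rpl35a at -1.57 (SE 1.04, adjusted p = 0.48).

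The largest differences upward in WT were also short of the threshold. They belonged to Rpl3l at 1.92 (SE 0.91, adjusted p = 0.31), Rpl34 at 1.53 (SE 1.07, adjusted p = 0.51), Rpl5 at 1.23 (SE 1.28, adjusted p = 0.69), Rps16 at 0.98 (SE 1.31, adjusted p = 0.76) and Rps7 at 0.94 (SE 0.75, adjusted p = 0.58). Rpl5, which binds 5S rRNA and can hold the p53 regulator Mdm2, held 22.8, 5.47 and 2.22 TPM in BM WT and 10.7, 12.9 and 38.4 TPM in PT WT, so its groups overlapped. Rps7 held 6.8, 11.6 and 4.87 TPM in BM WT and 14.2, 23.6 and 9.99 TPM in PT WT, and 1 PT library lay inside the BM range. All of these are values of a gene's own row, and the rows related to it are described below. Summed with its related rows, Rpl5 held 231, 92.6 and 91.1 TPM in BM WT and 47.8, 28.4 and 45.4 TPM in PT WT. Its PT sums thus lay below its BM sums. Rps16 so summed held 196, 164 and 194 TPM in BM WT and 104, 82 and 184 TPM in PT WT. For Rpl34 the sums were 95, 107.7 and 29.2 TPM in BM WT and 55, 71 and 141 TPM in PT WT.

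In MRP8-Bcl2 mice 26 of the 79 ribosomal protein genes tested (32.9%) were called lower in PT than in BM neutrophils in the values as deposited and 0 higher, against 19.1% of all genes tested called lower and 2.31% called higher. Of the 79, 78 had a log2 fold change below 0, with a median of -2.03 beside -1.02 for all genes tested, and 51 were below 0 with each library centred on its median. The 26 ranged from -2.24 for Rps3a1 to -4.87 for Rps10. In WT the same 26 ranged from -1.85 to 1.53 with a median of -0.54. In 30 of 79 (38%) all PT MRP8-Bcl2 libraries lay below all BM ones, as they did in 32.6% of all genes tested. The count of calls depended on how the libraries were scaled. With each library centred on its median, 2 of 79 (2.53%) were called lower, against 3.47% of all genes tested. With homopolymer genes left out and the rest rescaled, it was 4 of 79 (5.06%), against 7.69%. With quantile normalization it was 17 of 79, against 779 of the 13456 genes tested. The count of calls depended as much on single libraries. Without library 3 it was 6 of 78, against 1072 of the 13115 genes then tested. Without library 7 it was 38 of 79, against 1942 of 13326, and without library 9 it was 23 of 79, against 2178 of 13309.

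**Figure D3:**
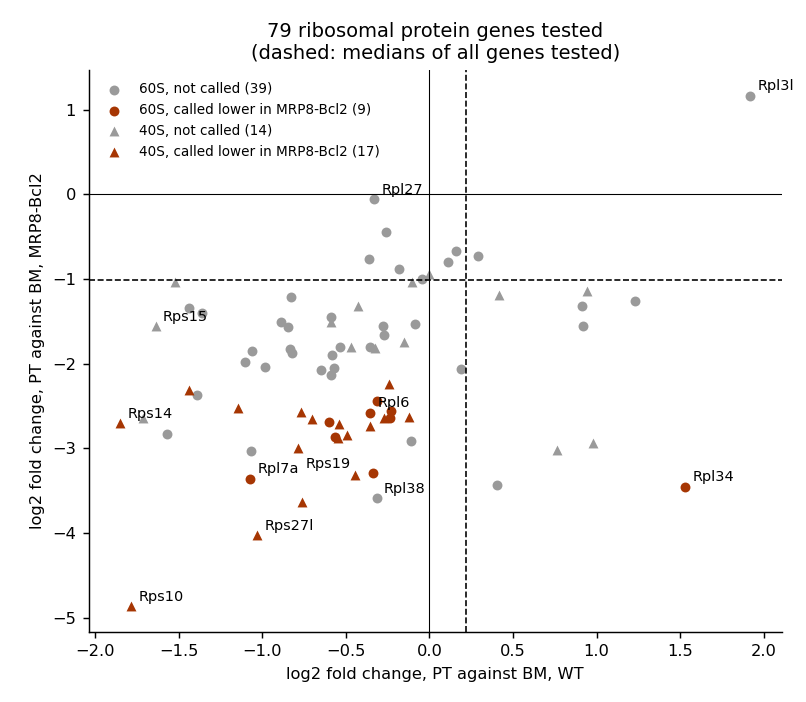
Log2 fold change of PT against BM in WT (x axis) and MRP8-Bcl2 (y axis) for the 79 ribosomal protein genes tested, with circles for 60S and triangles for 40S genes, coloured where called lower in MRP8-Bcl2, and dashed lines at the medians of all genes tested. Most points lie below the horizontal dashed line at -1.02 and left of the vertical one at 0.22, and Rps10 lies lowest at -4.87.

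Of the 26 genes, 6 were called in every one of the 12 fits that left out 1 library: Rpl6, Rpl7a, Rps10, Rps19, Rps25 and Rpsa. The share of all genes tested that was called in all 12 was not counted. With homopolymer genes left out and the rest rescaled, Rpl6, Rpl7a, Rps10 and Rps19 were called, while Rps25 and Rpsa were not. Rps10, a small subunit protein mutated in some cases of Diamond-Blackfan anaemia, held 167, 119 and 105 TPM in BM and 41.5, 90.3 and 12.3 TPM in PT of WT. Rps10 stood at 58.6, 169.7 and 415 TPM in BM and 0, 16.8 and 8.59 TPM in PT of MRP8-Bcl2. All of its PT MRP8-Bcl2 libraries were below all BM ones, and so were those of WT. Its log2 fold change was -4.87 (SE 1.00, adjusted p = 0.0054) in MRP8-Bcl2. Rpl7a, a large subunit protein, held 338, 217 and 157 TPM in BM and 68.8, 135 and 131 TPM in PT of WT. Rpl7a stood at 250.5, 479 and 638 TPM in BM and 28, 42.9 and 55.1 TPM in PT of MRP8-Bcl2. It too was lower in every PT library than in any BM library of the same genotype, and its log2 fold change in MRP8-Bcl2 was -3.36 (SE 0.53, adjusted p = 0.0015), the smallest adjusted p of the set. Rpl7a and Rps10 were the 2 genes still called with each library centred on its median, at -1.77 and -3.28.

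Rps19, the gene most often mutated in Diamond-Blackfan anaemia, a failure of red cell production, held 102, 33.8 and 40.6 TPM in BM and 34.1, 33.3 and 23.3 TPM in PT of WT. Rps19 stood at 111, 154 and 447 TPM in BM and 27, 29.7 and 16.7 TPM in PT of MRP8-Bcl2. Its groups did not overlap in MRP8-Bcl2 but did in WT, and its log2 fold change in MRP8-Bcl2 was -3.0 (SE 0.62, adjusted p = 0.0058). Rpl6, a large subunit protein, held 193, 115 and 161 TPM in BM and 144, 81.4 and 146 TPM in PT of WT. Rpl6 stood at 149.6, 209 and 422 TPM in BM and 36.8, 39.8 and 39.8 TPM in PT of MRP8-Bcl2. Here the 3 PT MRP8-Bcl2 libraries lay close together and below every other library, with a log2 fold change of -2.58 (SE 0.51, adjusted p = 0.0045). Rps25, which is known for its role in translation from internal ribosome entry sites, held 429.7, 266 and 355 TPM in BM and 180.4, 265 and 269 TPM in PT of WT. Rps25 stood at 264, 396 and 1017 TPM in BM and 22.2, 100.2 and 112 TPM in PT of MRP8-Bcl2. It had the highest mean of the 6 in BM of either genotype, and its log2 fold change was -2.88 (SE 0.64, adjusted p = 0.0076). Rpsa, the small subunit protein also known as the laminin receptor, held 139, 49.5 and 91.1 TPM in BM and 43.5, 59.6 and 55.2 TPM in PT of WT. Rpsa stood at 95.6, 166 and 352 TPM in BM and 29.7, 20.8 and 32.9 TPM in PT of MRP8-Bcl2. Its PT MRP8-Bcl2 libraries were the 3 lowest of the 12, with a log2 fold change of -2.66 (SE 0.58, adjusted p = 0.0071).

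Rps10 had the lowest log2 fold change in MRP8-Bcl2, and the next lowest were those of Rps27l, Rps21, Rpl38 and Rpl34, of which the first 3 had PT libraries listed at 0. Rps27l, a paralog of Rps27 that responds to p53, held 29.7, 33.7 and 39.2 TPM in BM and 40.7, 11 and 9.05 TPM in PT of WT. Rps27l stood at 19.8, 63.6 and 163 TPM in BM and 0, 0 and 49.4 TPM in PT of MRP8-Bcl2. Libraries 7 and 8 were listed at 0 while library 9 lay inside the BM range, and the log2 fold change was -4.03 (SE 1.24, adjusted p = 0.032). Rps21 held 97.3, 122 and 363 TPM in BM MRP8-Bcl2 and 0, 28.4 and 77.7 TPM in PT MRP8-Bcl2, with a log2 fold change of -3.63 (SE 1.18, adjusted p = 0.04). Rpl38, a large subunit protein linked to the translation of Hox mRNAs, held 242, 266 and 704 TPM in BM MRP8-Bcl2 and 0, 347 and 74.8 TPM in PT MRP8-Bcl2. It ranged from 0 to 346.8 TPM in 1 group, and its log2 fold change of -3.59 (SE 1.42, adjusted p = 0.083) was not called. Rpl34 held 13, 0 and 3.79 TPM in BM and 24.3, 1.68 and 22.8 TPM in PT of WT. Rpl34 stood at 18, 90.7 and 71.9 TPM in BM and 6.33, 3.72 and 1.77 TPM in PT of MRP8-Bcl2. It was above 0 in all 6 MRP8-Bcl2 libraries with PT below BM, and its log2 fold change was -3.46 (SE 1.07, adjusted p = 0.033) in MRP8-Bcl2.

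At the other end were the 5 genes with the highest log2 fold change of PT against BM in MRP8-Bcl2, none of them called. Rpl3l stood at 1.17 (SE 0.91, adjusted p = 0.37), Rpl27 at -0.06 (SE 0.94, adjusted p = 0.97), Rpl37 at -0.45 (SE 0.72, adjusted p = 0.68), Rpl22l1 at -0.66 (SE 0.80, adjusted p = 0.57) and Rpl22 at -0.72 (SE 1.11, adjusted p = 0.66). Rpl3l was the 1 gene of the 79 above 0. For Rpl22 and Rpl37 the PT value was set by library 7, at 1332 TPM for Rpl22 against 20 and 127 TPM in libraries 8 and 9, and at 304 TPM for Rpl37 against 49.6 and 40.5 TPM.

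The 2 subunits moved unequally in MRP8-Bcl2 in all libraries together, and this too followed library 7. Of 31 small subunit genes tested 17 (54.8%) were called lower, with a median log2 fold change of -2.63. Of 48 large subunit genes 9 (18.8%) were called lower, with a median of -1.84. Among all genes tested 19.1% were called lower, so the large subunit stood near that share. Without library 7 the counts were 16 of 31 and 22 of 48, against 1942 of the 13326 genes then tested, and the medians were -2.28 and -2.30. In library 7 the median large subunit gene stood at 120.3 TPM and the median small subunit gene at 29.7 TPM, while in the other 11 libraries the medians of the subunits differed by at most 1.39 times. The summed TPM of the large subunit was 1.95 times that of the small subunit in library 7 and 0.879 to 1.43 times in the others. Library 7 also had the most ribosomal protein genes at 0, 16 of 85, and the fewest genes of any kind above 0 (9735).

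The difference between the genotypes in the PT against BM change was tested as an interaction. No ribosomal protein gene passed an adjusted p of 0.05 there, against 0.0149% of all genes tested (2 genes), and 18 of the 79 (22.8%) had an unadjusted p under 0.05, against 16.9% of all genes tested. The median interaction of the 79 was -1.45, beside -1.18 for all genes tested. With each library centred on its median its sign turned, to 0.36 beside 0.62 for all genes tested, with 45 of the 79 above 0. The smallest p-values were those of Rpl34 at -4.99 (SE 1.51, adjusted p = 0.23), Rpl7a at -2.29 (SE 0.75, adjusted p = 0.24) and Rpl6 at -2.23 (SE 0.72, adjusted p = 0.24). The value for Rpl34 is that of its own row, which held 17.7% of the mean TPM summed with its related rows. So the 26 calls in MRP8-Bcl2 and the 0 in WT are not shown to differ between genotypes.

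Nor did the genotypes differ past the threshold within either tissue. In BM, 0 of 79 were called between MRP8-Bcl2 and WT, against 0.0223% of all genes tested (3 genes), with 6 (7.59%) at an unadjusted p under 0.05, all higher in MRP8-Bcl2, against 7.36% of all genes tested in either direction. The median log2 fold change was 0.82 beside 0.49 for all genes tested, and 75 of 79 were above 0. The smallest p-values belonged to Rps7 at 2.72 (SE 0.75, adjusted p = 0.45), Rpl34 at 3.63 (SE 1.07, adjusted p = 0.51) and Rps19 at 1.90 (SE 0.62, adjusted p = 0.60). Rps7, which held 6.8, 11.6 and 4.87 TPM in BM WT and 28, 42 and 130.2 TPM in BM MRP8-Bcl2, did not overlap between the genotypes. Rpl34 had 17.7% of its summed mean TPM on its own row. Summed with its related rows it held 95, 107.7 and 29.2 TPM in BM WT and 170.6, 172 and 573 TPM in BM MRP8-Bcl2. In PT, 0 of 79 were called, against 0.0297% of all genes tested (4 genes), with 13 (16.5%) at an unadjusted p under 0.05, all lower in MRP8-Bcl2, against 12.7% of all genes tested in either direction. The median was -0.66 beside -0.67 for all genes tested, and the smallest p-values belonged to Rps2 at -3.57 (SE 1.17, adjusted p = 0.29), Rpl6 at -1.60 (SE 0.51, adjusted p = 0.28) and Rps25 at -1.87 (SE 0.64, adjusted p = 0.30). Rps2 had 15% of its summed mean TPM on its own row. Summed with its related rows it held 52.6, 61.4 and 108.7 TPM in PT WT and 10.1, 16 and 48.8 TPM in PT MRP8-Bcl2.

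**Figure D4:**
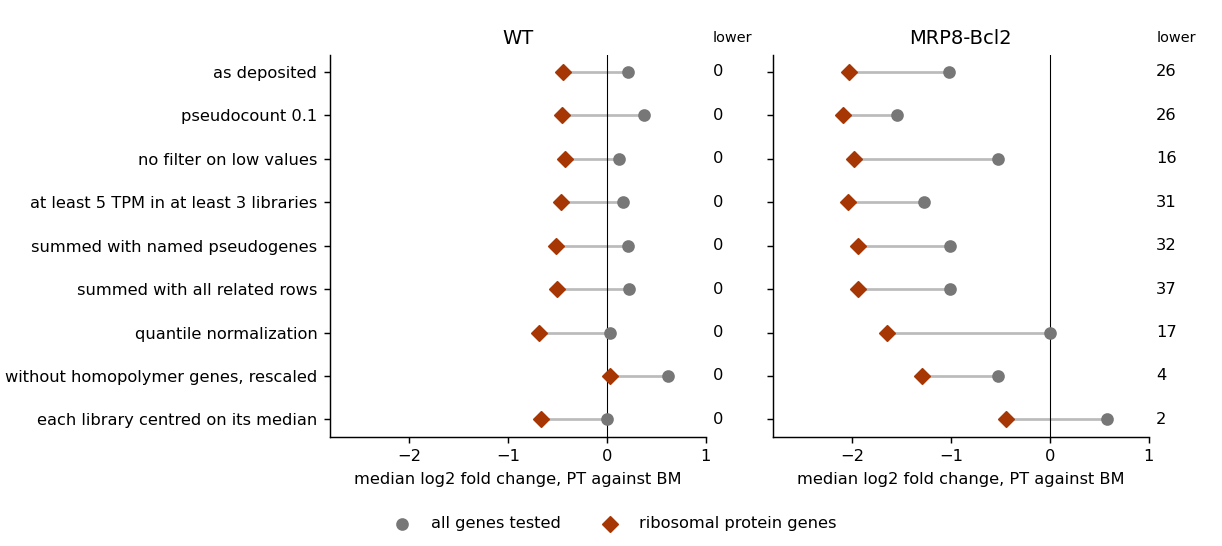
Median log2 fold change of PT against BM (x axis) over the ribosomal protein genes (diamonds) and over all genes tested (grey circles), under the values as deposited and 8 other settings (y axis), in WT and MRP8-Bcl2. The number at the right of each line is the count of ribosomal protein genes called lower, which is 0 throughout in WT and between 2 and 37 in MRP8-Bcl2, and the diamonds lie left of the circles in every line.

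The ribosomal protein genes kept a lower median than all genes tested under each of these settings, but in WT its side of 0 did not hold. There the median of the 79 moved from -0.45 to 0.03 once homopolymer genes were left out, while that of all genes tested moved from 0.22 to 0.62. In MRP8-Bcl2 it moved from -2.03 to -0.44 with each library centred on its median, while that of all genes tested moved from -1.02 to 0.57. The same centring turned the split of all calls in MRP8-Bcl2 from 311 higher and 2567 lower to 1636 higher and 467 lower.

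Rows related to these genes held further TPM in the table. Rows named as a pseudogene of a ribosomal protein gene, or sharing at least 50% of their 31-base words with one, numbered 306, and 66 of the 85 genes had at least 1. Together they held 26.3 to 36.0% of the TPM summed over the genes and these related rows in each library, and the 4 group means lay between 30.9% ± 4.91 (SD, n = 3) in PT MRP8-Bcl2 and 32.7% ± 2.51 (SD, n = 3) in BM MRP8-Bcl2, which is less than the spread between libraries. For 21 genes the own row held less than 50% of the summed mean TPM.

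**Figure D5:**
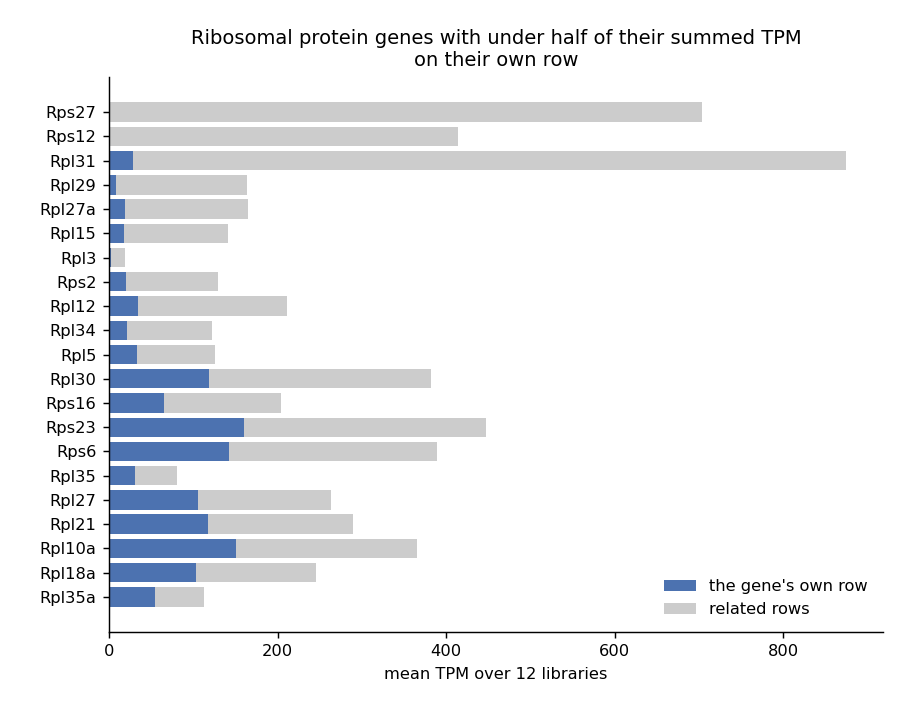
Mean TPM over the 12 libraries (x axis, from 0) of the 21 ribosomal protein genes with less than 50% of their summed TPM on their own row, split into the gene's own row (blue) and its related rows (grey). Rps12 and Rps27 have no blue bar, and Rpl31 has 28.8 TPM on its own row and 846 TPM on related rows.

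Rps12 and Rps27, both small subunit genes, were listed at 0 in all libraries and so were not tested. The row of Rps12-ps3, whose copy of the Rps12 coding sequence is printed above, held 587, 173 and 361 TPM in BM and 167, 259 and 449 TPM in PT of WT. Rps12-ps3 stood at 319, 575 and 1138 TPM in BM and 221, 146 and 104 TPM in PT of MRP8-Bcl2. These levels are those of an abundant ribosomal protein gene, and PT MRP8-Bcl2 lay below all BM libraries of that genotype. Rps12 summed with all its related rows was called lower in PT MRP8-Bcl2, at -1.94 (SE 0.60, adjusted p = 0.032), and not in WT, at -0.36 (SE 0.60, adjusted p = 0.81). Gm9846, the copy of Rps27, held 477, 571 and 1135 TPM in BM and 457, 385 and 623 TPM in PT of WT. Gm9846 stood at 569, 522 and 1608 TPM in BM and 1461, 136 and 501 TPM in PT of MRP8-Bcl2. It ranged from 136 to 1461 TPM within PT MRP8-Bcl2, and the sum for Rps27 was not called in either genotype, at -0.50 (SE 0.72, adjusted p = 0.78) in WT and -0.75 (SE 0.72, adjusted p = 0.47) in MRP8-Bcl2.

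Rpl31 and Rps6 had reads on both rows. Rpl31 itself held 40.7, 18.4 and 20.7 TPM in BM and 14.9, 27.1 and 11.2 TPM in PT of WT, and 29.4, 32.3 and 129 TPM in BM and 14.6, 2.55 and 5.06 TPM in PT of MRP8-Bcl2, while its copy Rpl31-ps8 held 1311, 821 and 1235 TPM in BM and 588, 375 and 537 TPM in PT of WT. Rpl31-ps8 stood at 894, 935 and 2508 TPM in BM and 393, 131 and 402 TPM in PT of MRP8-Bcl2. The copy was the higher row in every library, and both rows were lower in all PT than in all BM libraries of MRP8-Bcl2. Rps6, the small subunit protein phosphorylated by the S6 kinases below mTORC1, held 154, 85.7 and 207 TPM in BM and 116, 16.4 and 67.9 TPM in PT of WT. Rps6 stood at 129.5, 192 and 577 TPM in BM and 27.7, 80 and 50.5 TPM in PT of MRP8-Bcl2. Its copy Rps6-ps4, identical over all 747 coding bases, held 326, 121 and 155 TPM in BM and 86.2, 214 and 439 TPM in PT of WT. Rps6-ps4 stood at 226, 335 and 783 TPM in BM and 127, 79.5 and 34.3 TPM in PT of MRP8-Bcl2. The order of the 2 rows changed from library to library, and their sum was called lower in PT MRP8-Bcl2, at -2.30 (SE 0.58, adjusted p = 0.014).

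Rpl30, a large subunit gene, had related rows that differed between groups; how reads were placed on them was not tested. Its own row held 42.3, 117 and 38.7 TPM in BM and 77.5, 78.4 and 215 TPM in PT of WT. Rpl30 stood at 45.2, 174 and 402 TPM in BM and 165, 25.1 and 47.6 TPM in PT of MRP8-Bcl2. The copy Gm12191, chosen after its values were seen, held 175, 196 and 44.9 TPM in BM and 145, 125 and 309.5 TPM in PT of WT. Gm12191 stood at 471, 482 and 730.3 TPM in BM and 0.0862, 8.28e-08 and 0.0896 TPM in PT of MRP8-Bcl2. It was above 44 TPM in all 9 libraries of the other groups and below 0.1 TPM in all 3 of PT MRP8-Bcl2, and it was 1 of the 2 genes in the whole table called in the interaction, at -9.64 (SE 0.87, adjusted p = 0.00017). The row of Rpl30-ps9 was at 0 in those 9 libraries, except for 0.000518 TPM in library 2, and held 206, 16.7 and 0 TPM in PT MRP8-Bcl2. That of Rpl30-ps10 was at 0 in the 9 and held 36.4, 0 and 71 TPM in PT MRP8-Bcl2. Summed with all related rows, Rpl30 held 224, 326 and 83.6 TPM in BM WT, 243, 213 and 569 TPM in PT WT, 526, 665 and 1171 TPM in BM MRP8-Bcl2 and 408, 41.8 and 119 TPM in PT MRP8-Bcl2. Its interaction was then -3.29 (SE 1.06, adjusted p = 0.23), and no gene of the table passed an adjusted p of 0.05 in the interaction.

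With every gene summed with its related rows, 81 of the 85 were tested and 37 (45.7%) were called lower in PT MRP8-Bcl2, against 19.4% of all genes tested, and 0 in WT. All 26 genes called on their own rows were among the 37, which added Rpl10, Rpl10a, Rpl11, Rpl13, Rpl15, Rpl18, Rpl29, Rpl30, Rps2, Rps12 and Rps16. With each library also centred on its median, 3 of 81 were called, Rpl34, Rpl7a and Rps2, against 473 of the 13393 genes tested.

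Of the 6 paralogs, whose symbols hold an l after the number, Rpl10l, Rpl39l and Rpl7l1 were far below their parents. Rpl3l and Rpl3 were both low. Rps27l was above 0 in 10 libraries, while the row of Rps27 was listed at 0 in all of them, and both were at 0 in libraries 7 and 8. With the copy Gm9846 counted to Rps27, Rps27l made up 0 to 10.9% of the TPM of the pair. Rpl10l, an autosomal copy of the X-linked Rpl10 known from the testis, was listed at 0 in all libraries, and Rpl39l was above 0 in 2 libraries, at 2.15 and 1.77 TPM. Rpl10 held 280, 230.3 and 266 TPM in BM and 215, 166 and 272 TPM in PT of WT, and 211, 553 and 439 TPM in BM and 266, 47.6 and 124 TPM in PT of MRP8-Bcl2, and Rpl39 held 227, 155 and 298 TPM in BM and 209, 189 and 334 TPM in PT of WT. Rpl39 stood at 134, 227 and 702 TPM in BM and 207, 119.7 and 164 TPM in PT of MRP8-Bcl2. Rpl3l, the striated muscle paralog of Rpl3, held 0.823, 0 and 0 TPM in BM and 1.64, 1.3 and 15.3 TPM in PT of WT. Rpl3l stood at 0, 0 and 0 TPM in BM and 10.3, 0 and 0 TPM in PT of MRP8-Bcl2. Rpl3 itself held 17.1, 0 and 0 TPM in BM WT and 2.99, 4.52 and 5.26 TPM in BM MRP8-Bcl2 and was listed at 0 in all 6 PT libraries, with a mean of 2.49 TPM on its own row against 16.7 TPM on related rows. Its log2 fold change was -1.39 (SE 0.87, adjusted p = 0.45) in WT and -2.37 (SE 0.87, adjusted p = 0.064) in MRP8-Bcl2. Rpl7l1, a nucleolar relative of Rpl7, held 8.44, 4.24 and 4.6 TPM in BM and 2.3, 5.12 and 6.2 TPM in PT of WT, and 6.2, 12.8 and 16 TPM in BM and 0.372, 0.548 and 3.94 TPM in PT of MRP8-Bcl2, and it was called lower in PT MRP8-Bcl2 at -2.44 (SE 0.75, adjusted p = 0.033). Its parent Rpl7, at 46.6, 149.9 and 253 TPM in BM MRP8-Bcl2 and 94.8, 21.5 and 34 TPM in PT MRP8-Bcl2, was not called, at -1.53 (SE 0.72, adjusted p = 0.13).

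Rpl22l1 and Rpl22 were both above 0 in every library. Rpl22l1 held 73.1, 50.2 and 39.4 TPM in BM and 65.2, 39.3 and 79.3 TPM in PT of WT, and 5.61, 22.4 and 95.1 TPM in BM and 10.4, 11.1 and 25.9 TPM in PT of MRP8-Bcl2, and Rpl22 held 246, 56 and 87 TPM in BM and 83.1, 163 and 163 TPM in PT of WT. Rpl22 stood at 99.7, 282 and 566 TPM in BM and 1332, 20 and 127 TPM in PT of MRP8-Bcl2. Rpl22 binds RNA and is known to hold down the mRNA of its paralog. Rpl22l1 made up 22.9, 47.3 and 31.1% of the TPM of the pair in BM and 43.9, 19.4 and 32.8% in PT of WT. Its share was 5.33, 7.38 and 14.4% in BM and 0.778, 35.7 and 17% in PT of MRP8-Bcl2. The BM groups of the genotypes did not overlap in this share, while its PT groups did, and so did PT and BM within each genotype; the share was not tested.

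The stalk proteins, which recruit the GTP-hydrolysing translation factors to the ribosome, gave no call. Rplp0 held 115, 55.7 and 80.6 TPM in BM and 39.8, 44.4 and 50.6 TPM in PT of WT. Rplp0 stood at 79.2, 133 and 343 TPM in BM and 246, 34 and 33 TPM in PT of MRP8-Bcl2. Its WT groups did not overlap, with PT lower, at -0.83 (SE 0.74, adjusted p = 0.63), while library 7 lay among the BM libraries in MRP8-Bcl2, at -1.22 (SE 0.74, adjusted p = 0.25). Rplp1 held 3.34, 19.6 and 32.3 TPM in BM and 1.8, 22.7 and 34.4 TPM in PT of WT, and 21.9, 72.2 and 40.7 TPM in BM and 0, 10.9 and 12.6 TPM in PT of MRP8-Bcl2, with a log2 fold change of -2.92 (SE 1.14, adjusted p = 0.08) in MRP8-Bcl2. Rplp2 held 353, 124 and 470 TPM in BM and 236, 134 and 312 TPM in PT of WT, and 305, 567 and 1263 TPM in BM and 336, 85.2 and 177 TPM in PT of MRP8-Bcl2, with -1.80 (SE 0.67, adjusted p = 0.068). Rplp2 was thus far above Rplp1 in all libraries. Rps27a, which is made as a fusion of ubiquitin with the ribosomal protein, held 300.4, 161 and 137 TPM in BM and 54.1, 76.6 and 319 TPM in PT of WT. Rps27a stood at 108, 218 and 420.1 TPM in BM and 67.5, 15.8 and 40.5 TPM in PT of MRP8-Bcl2. It was called lower in PT MRP8-Bcl2, at -2.57 (SE 0.74, adjusted p = 0.025).

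The 3 genes annotated as processed pseudogenes were close to silent. Rps4y2 was listed at 0 in all libraries, Rps3a3 was above 0 in 1 library, at 1.58 TPM, and Rps3a2 reached 7.64 TPM in library 3. The TOP tract was found in 10 of 20 (50%) genes called lower with a promoter record and in 18 of 38 (47.4%) of those tested and not called.

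The other genes of ribosome production were read from lists, and none was called in WT in either direction. In MRP8-Bcl2 none was called higher, and the lists had called members in PT as follows, beside 19.1% of all genes tested. Fau, which joins a ubiquitin-like domain to a ribosomal protein and lies outside the naming rule, was called lower, at -5.33 (SE 1.73, adjusted p = 0.041). Fau held 0, 94.8 and 0 TPM in PT MRP8-Bcl2, so its fall rested on libraries listed at 0. Of elongation factors and other TOP mRNAs, 8 of 17 tested were lower, with Eif3e, a subunit of initiation factor 3, at -4.40 (SE 0.86, adjusted p = 0.0044). Of translation initiation factors 10 of 26 were lower, among them Eif3b at -3.28 (SE 0.85, adjusted p = 0.015). Eif3e, Eif3f, Eif3h and Eif4b are in both of these lists, and Fau is also in the list of TOP mRNAs, so the counts share genes.

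Genes that make and assemble rRNA were called in similar numbers. Of the rRNA synthesis list 5 of 10 tested were lower, with Polr1d, a subunit of RNA polymerases I and III, at -3.98 (SE 0.88, adjusted p = 0.0075) and Ubtf, the RNA polymerase I activator, at -3.81 (SE 0.83, adjusted p = 0.0071). Of ribosome assembly and rRNA processing 11 of 30 were lower, with Eif6, which keeps free 60S subunits from joining 40S, at -4.30 (SE 0.76, adjusted p = 0.0025) and Ltv1, a 40S assembly factor, at -4.12 (SE 1.02, adjusted p = 0.013). Of the genes that control TOP mRNA through mTORC1, 4 of 14 were lower, with the S6 kinase genes Rps6kb2 at -3.61 (SE 0.93, adjusted p = 0.015) and Rps6kb1 at -2.83 (SE 0.86, adjusted p = 0.031). Of ribosome rescue and quality control 1 of 7 was lower, Abce1, which splits ribosomes after termination, at -3.04 (SE 0.72, adjusted p = 0.01). The mitochondrial ribosome, which is built from a separate set of proteins, had 19 of 75 lower, with Mrpl18 at -4.74 (SE 0.83, adjusted p = 0.0025) and Mrpl42 at -4.17 (SE 1.02, adjusted p = 0.012). The medians of the 7 lists given here with counts lay, in MRP8-Bcl2, between -2.34 for rRNA synthesis and -1.36 for mTORC1 control, beside -2.03 for the ribosomal protein genes and -1.02 for all genes tested.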

How the data were processed

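Cells of the peritoneal cavity and bone marrow were sorted into Trizol, and cDNA was amplified with the NuGen Ovation system before library preparation and paired-end sequencing. The deposited values are log2(TPM + 1) per gene and library, which the authors made with AltAnalyze at its default settings; the deposited group averages equal the means of the library columns, and the authors' log2 fold changes and p-values in the same table were not used. Aligner settings and annotation release are not given in the sources used here. A second table with estimated counts of 1 library was not used, because nothing ties it to a sample.

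The 12 library columns were mapped to 4 groups by their names. The members and the lists were chosen with earlier results of these data known. The deposited log2 values were tested as they stand and turned back to TPM for levels, sums and scalings. Folds on the log2(TPM + 1) scale understate those of low genes. Genes that reached 1 TPM in 3 or more libraries were fitted with limma 3.58.1 (R 4.3.3, lmFit, contrasts.fit, eBayes with trend, 8 residual degrees of freedom), in 1 model of 4 groups. P-values were adjusted by Benjamini-Hochberg over all genes tested. The fit was also run on simulated data in which each gene varied independently. No whole library was shifted there, so that run cannot judge how scaling affects the calls. Related rows were found by pseudogene names and by 31-base words shared in GENCODE M21 transcripts. Named genes were those with the 3 highest and lowest medians, the 5 largest changes in each direction and tissue comparison, the 3 smallest p-values of the other comparisons, paralogs and parents, Rplp0, Rplp1, Rplp2, Rps27a and Rpsa, genes at 0 throughout a group, and the 2 largest called changes of each list. The genes called in every fit that left out 1 library, and the related rows, were picked from their values. Alternatives were another pseudocount (0.1), no filter or 5 TPM, centring, quantile normalization, rescaling without homopolymer genes, summing with pseudogenes, and leaving out each library. Results that need 2 genes of these sets are not reported here.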

Additional observations from a re-analysis of the deposited data

How the results depend on the processing

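In WT, and in the interaction and both comparisons of genotypes, the count of ribosomal protein genes called stayed at 0 under all alternatives run. In MRP8-Bcl2 0 were called higher throughout. The counts called lower in PT follow, each with that of all genes tested in brackets. As deposited it was 26 of 79 (2567 of 13456). The count became 16 of 81 (1896 of 18605) without a filter on low values and 17 of 79 (779 of 13456) with quantile normalization. It became 4 of 79 (1077 of 13999) without homopolymer genes and 2 of 79 (467 of 13456) with libraries centred on their medians. It was 26 of 79 (2472 of 13456) with a pseudocount of 0.1. A filter of 5 TPM gave 31 of 76 (2442 of 9870) and summing named pseudogenes 32 of 80 (2575 of 13425). Leaving out 1 library gave 6 to 38. It was 13 of 79 (1368 of 13138) without library 2 and 6 of 78 (1072 of 13115) without library 3, both BM MRP8-Bcl2. Of the 26 genes, 16 were kept under quantile normalization, 24 with a pseudocount of 0.1 and 13 without library 2, and no direction turned in any setting. The median log2 fold change of -2.03 in MRP8-Bcl2 became -1.29 without homopolymer genes and -0.44 with centring, and lay between -2.45 and -1.41 with 1 library left out. For MRP8-Bcl2 against WT, centring moved the median from 0.82 to 0.08 in BM and from -0.66 to 0.41 in PT, and leaving out 1 library gave 0.29 to 1.25 in BM and -1.04 to -0.27 in PT. In WT the medians with 1 library left out lay between -0.70 and -0.22. Alternatives chosen after seeing the data summed all related rows. Of 81 tested, 37 were then called lower in MRP8-Bcl2 (2596 of all 13393 genes), and with centring 3 (473 of 13393). The medians with centring were -0.36 in MRP8-Bcl2, and 0.08 in BM and 0.43 in PT for the comparison of genotypes. The cause of these changes was not tested. No paired analysis was possible because the columns carry no replicate or mouse number. With 3 libraries a group, standard errors of single ribosomal protein genes ran from 0.50 to 1.59 on the log2 scale in MRP8-Bcl2, and the smallest fall called was -2.24.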
